A study of Mus musculus with 2 samples.

Results

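The genes described here form the system that breaks down triglyceride in plasma lipoproteins. They are the plasma lipases Lpl, Lipc and Lipg, the angiopoietin-like lipase inhibitors Angptl4 and Angptl8, the anchoring protein Gpihbp1, and the apolipoproteins Apoc2, Apoc3 and Apoa5, 9 genes in all. They were found by symbol, as the probe sets annotated with exactly 1 gene symbol. This gave 12 of the 45101 probe sets on the array, for 8 of the 9 genes and of the 18194 genes measured in all. Lipc, hepatic lipase, had no probe set under this rule and was not analysed here.

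Lipoprotein lipase hydrolyses the triglyceride of chylomicrons and very low density lipoproteins on the surface of capillaries, where Gpihbp1 carries and anchors it. Apoc2 is its obligatory cofactor, Apoa5 promotes triglyceride clearance, and Apoc3 and the angiopoietin-like proteins restrain it. The liver is a main source of these apolipoproteins and of Angptl8, whereas Lpl itself is made mainly in fat, heart and skeletal muscle.

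Liver RNA came from outbred ICR mice kept on a CRF-1 basal diet. From the age of 9 weeks, the Diosgenin group received this diet supplemented with the plant sapogenin diosgenin at 500 ppm, and the Control group the basal diet alone, both for 4 weeks and without food restriction. Each group was 3 mice, whose RNA was pooled and hybridised to 1 array at 13 weeks of age. There is therefore no replicate for either diet, no test was possible, and every value below compares 2 pools. Cages held 3 mice, so the cage and the diet cannot be told apart if each diet was 1 cage, which the labels do not state.

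The values were linear probe set signals. The trimmed mean signal was 96.9 on both arrays and the median signal 17.0 on the Diosgenin array and 17.1 on the Control array. The ratio of 3′ to 5′ control probe sets, a measure of RNA integrity, was 0.799 for Gapdh on the Diosgenin array and 0.822 on the Control array, and for Actb 2.03 and 1.86 on the Diosgenin and the Control array. All 12 hepatocyte marker genes were above the signal filter, with a median log2 ratio of −0.07, and Apoa1, Serpina1c and Fgb, the brightest, had −0.07, −0.10 and −0.07. Alb, albumin, named after its values were seen, had a signal of 8429 on the Diosgenin array and 9517 on the Control array, so the tissue label fitted its markers.

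Each log2 ratio sets the Diosgenin signal over the Control signal, after signals under a floor of 10.7 were raised to it. A probe set passed the signal filter with a mean signal of at least 28.4. Of the 12 probe sets, 10 passed, and these covered all 8 measured genes. Both that failed belonged to a gene that also had a brighter probe set. Of the 10 probe sets, 5 were higher and 5 lower on the Diosgenin array, with ratios between −0.45 and 0.74 and a median of −0.03, beside a median of −0.0034 over all 16259 probe sets that passed. A difference of 1.5-fold was reached by 2 of the 10, both higher and both of Lpl, and by 0 in the lower direction. Over all probe sets that passed, 7.25% were at least 1.5-fold apart, 3.25% higher and 4% lower. None of the 10 was 2-fold apart, against 1.41% of all probe sets. Counted by gene, with the brightest probe set of each, 1 of 8 genes was 1.5-fold apart, against 6.44% of 9732 genes. With 8 genes, 1 gene past this size is not a result about the set, and the values of the single genes carry the description.

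**Figure D1:**
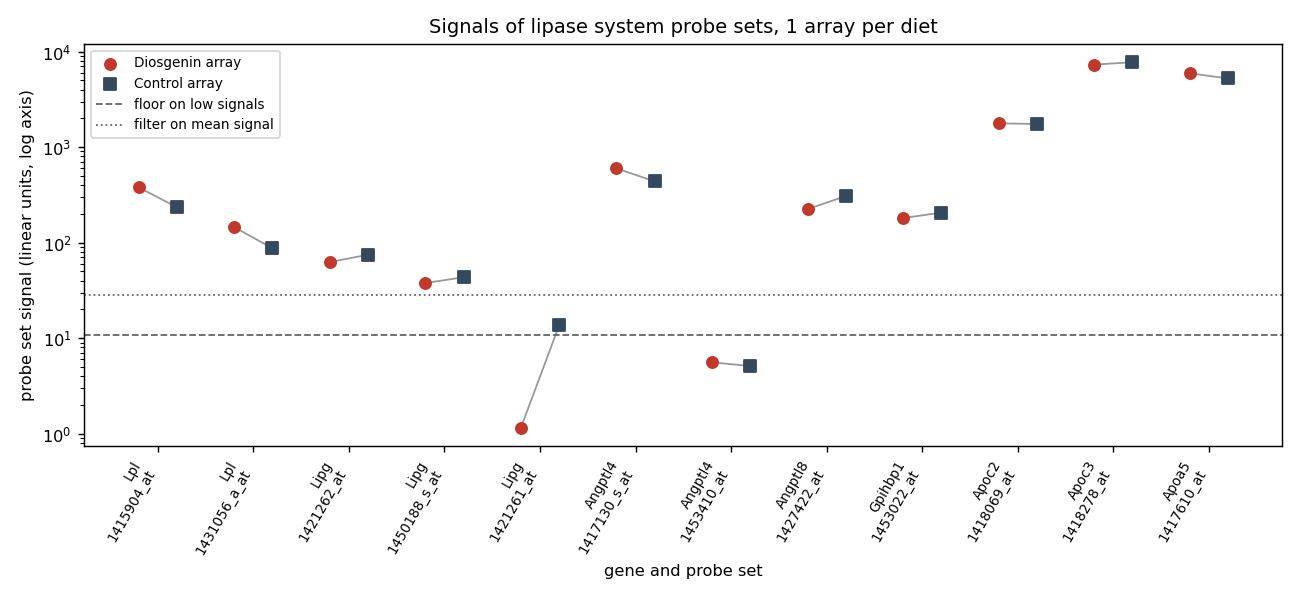
Signals of all 12 probe sets (log axis, linear units) on the Diosgenin array (circles, left) and the Control array (squares, right), joined by a line for each probe set, with the floor at 10.7 and the filter at 28.4. Both Lpl probe sets and 1 Angptl4 probe set stand higher on the Diosgenin array, Angptl8 stands lower, and the 3 apolipoproteins lie nearly level. The dimmest Lipg probe set and the dimmer Angptl4 probe set are under the filter.

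Lpl was higher on the Diosgenin array by both of its probe sets. The first, 1415904_at, had a signal of 378 on the Diosgenin array and 235 on the Control array, a log2 ratio of 0.69 or 1.61-fold higher. The second, 1431056_a_at, which is annotated from a different transcript record, had 145 on the Diosgenin array and 87.2 on the Control array, a log2 ratio of 0.74 or 1.67-fold higher. The 2 probe sets differed by 0.05 on the log2 scale. Across 4079 genes with several probe sets above the filter, the standard deviation within a gene was 0.28, more than the gap between both Lpl probe sets. Of the 64 genes with several probe sets whose brightest was at least 1.5-fold higher, Lpl included, 16 had a median of the others that was also at least 1.5-fold higher. This repeat lies within the same 2 pools of RNA and holds nothing of the spread between mice.

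The spread of ratios depends on signal, so each probe set was set beside others of like brightness by dividing the 16259 probe sets into 4 bins of equal size by mean signal. In the brightest bin, of which 1415904_at was the dimmest probe set, the central 95% of log2 ratios ran from −0.48 to 0.45. In the next brightest bin it ran from −0.54 to 0.51, so this probe set lay outside either range. The other Lpl probe set lay in the bin above the dimmest, where the range was −0.65 to 0.64, and was outside it too. By its brightest probe set Lpl had a higher ratio than 9543 of the 9732 genes, with 188 above it. These are ranks within 1 pair of arrays.

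Lpl in liver can be made by cells other than hepatocytes. Most Kupffer cell and stellate cell markers had a higher signal on the Diosgenin array, while most endothelial markers, given below, had a lower one. In bulk liver, more cells of a type and more RNA per cell cannot be told apart. Of 11 Kupffer cell and macrophage markers that passed, 8 had a higher and 3 a lower signal on the Diosgenin array, their median ratio was 0.12 (log2), and the summed signal over all 12 markers was 2849 on the Diosgenin array and 2572 on the Control array. Csf1r, Cd5l and Clec4f, the brightest of them, had log2 ratios of 0.09, −0.02 and 0.36, and the 3 probe sets of Csf1r ranged from −0.27 to 0.36. Marco, a scavenger receptor named after its values were seen, was the 1 marker past 1.5-fold, beside 2.84% of all 9732 genes at least 1.5-fold higher. It had a dim 45.1 on the Diosgenin array and 13.3 on the Control array, a log2 ratio of 1.76. Its Control signal alone was under the 28.4 of the filter. Over all probe sets that passed, 49.4% had a higher signal. Of 11 stellate cell markers 9 had a higher and 2 a lower signal. Their median was 0.20 and their sums were 3954 on the Diosgenin array and 3386 on the Control array, led in signal by Dcn, Reln and Rgs5 at 0.37, 0.34 and 0.21. The 3 probe sets of Rgs5 ranged from −0.74 to 0.28. The part of these cells in the Lpl signal was not tested.

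Of the tissues that make most Lpl, skeletal and heart muscle had dim markers, while the adipocyte markers varied in signal. Among the latter Fabp4 had 130 on the Diosgenin array and 149 on the Control array. The adipocyte markers Adipoq, Lep and Cidec were under the floor on both arrays, though not at 0, while Pck1, Fabp4 and Lipe, 3 of the 7 measured markers, passed the filter with log2 ratios of 0.30, −0.20 and −0.05. Of these Pck1 is also a hepatocyte gene, and it makes up most of the summed marker signal of 4903 on the Diosgenin array and 4059 on the Control array. Of 10 skeletal and heart muscle markers, 0 passed the filter, and Myh6, Myh7, Tnnt3 and Mb were under the floor on both arrays. The muscle sum was 102 on the Diosgenin array and 51.9 on the Control array. Its brightest marker, Ckm, had 17.4 on the Diosgenin array and 18.5 on the Control array, and Mylpf had 12.6 and 16.5. Every other muscle marker was higher on the Diosgenin array, all at signals under the filter. Among these, Tnni2 had 15.7 on the Diosgenin array and 3.89 on the Control array. The part of either tissue in the Lpl signal was not tested.

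Lipg, endothelial lipase, which acts mainly on the phospholipid of high density lipoproteins, was read by 3 probe sets. The brightest, 1421262_at, had 62.6 on the Diosgenin array and 74.7 on the Control array, a log2 ratio of −0.25. The shared probe set 1450188_s_at had 37.8 on the Diosgenin array and 43.5 on the Control array, a ratio of −0.20. The third, 1421261_at, had 1.15 on the Diosgenin array, under the floor, and 13.6 on the Control array, only just above it, and was left out by the filter. Both ratios above the filter were smaller than the 0.28 spread between probe sets of a gene and inside the ranges of their bins, which reached from −0.95 to 0.83 in the dimmest one.

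Angptl4, an inhibitor that unfolds lipoprotein lipase and is a target of PPARα and of fasting, was higher on the Diosgenin array by the only probe set above the filter. This probe set, 1417130_s_at, had 598 on the Diosgenin array and 438 on the Control array, a log2 ratio of 0.45 or 1.37-fold higher. Its type can bind several transcripts. It lay at the upper edge of the central 95% of its bin, which ended at the same 0.45 after rounding. The second probe set, 1453410_at, was under the floor on both arrays, at 5.59 on the Diosgenin array and 5.11 on the Control array, and gives no ratio.

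Angptl8, which in mice is induced by feeding and insulin and limits lipase activity in muscle and heart, was lower. Its single probe set had 224 on the Diosgenin array and 307 on the Control array, a log2 ratio of −0.45 or 1.37-fold lower. This was the lowest ratio of the set, yet it lay inside the central 95% of its bin, −0.54 to 0.51, and 646 of the 9732 genes had a lower one. The log2 ratios of Angptl4 and Angptl8 were thus of nearly equal size and opposite sign, 0.91 apart.

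Gpihbp1, the protein that carries lipoprotein lipase across capillary endothelium and holds it there, had 181 on the Diosgenin array and 206 on the Control array. Its log2 ratio was −0.19, smaller than the spread between probe sets of a gene and opposite in sign to that of Lpl, 0.88 below it. Gpihbp1 is an endothelial gene. Of 11 endothelial markers that passed, 10 had a lower signal and 1 a higher one. Their median was −0.32, beside −0.0053 over all genes, and 49.4% of all probe sets that passed were higher. Clec4g and Fcgr2b were at least 1.5-fold lower, at log2 ratios of −0.68 and −0.59, as were 3.61% of all 9732 genes. The 4 probe sets of Fcgr2b, however, ranged up to −0.17, and Stab2, the third by signal, had −0.27. Summed over 12 markers the signal was 1971 on the Diosgenin array and 2674 on the Control array. The part of endothelial cells in the Gpihbp1 signal was not tested.

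**Figure D2:**
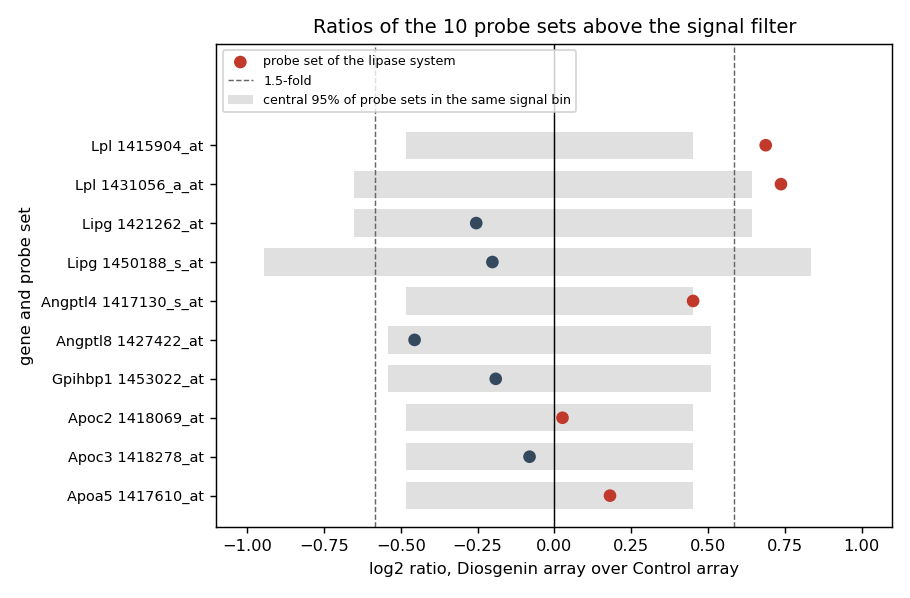
Log2 ratios (Diosgenin over Control) of the 10 probe sets above the filter (points, red above 0 and blue below 0), each over a grey bar for the central 95% of all probe sets in the same bin of mean signal. Both Lpl points lie right of their bars and beyond the dashed 1.5-fold line, Angptl4 lies at the end of its bar, and the 7 others lie inside theirs.

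The apolipoprotein cofactors and inhibitors, all bright in this tissue, had log2 ratios between −0.08 and 0.18. Apoc2 had 1775 on the Diosgenin array and 1743 on the Control array, a log2 ratio of 0.03. Apoc3, which inhibits the lipase and the uptake of remnants by the liver, had 7308 on the Diosgenin array and 7729 on the Control array, a ratio of −0.08. Apoa5 had 5925 on the Diosgenin array and 5227 on the Control array, a ratio of 0.18 or 1.13-fold higher, with 2134 of the 9732 genes above it. The difference between the ratios of the activator Apoc2 and the inhibitor Apoc3 was 0.11. Each of the 3 genes had 1 probe set, so none has a repeat reading, and each ratio was smaller than the 0.28 spread between probe sets of a gene.

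These 3 genes belong to 2 clusters of apolipoprotein genes. In the RefSeq gene table of GRCm38.p6, used only for names and neighbours, Apoc3 lies between Apoa1 and Apoa4 and Apoa5 lies between Apoa4 and Zpr1. Apoa1, the main protein of high density lipoproteins, had a log2 ratio of −0.07 and Apoa4, a protein of intestinal and liver lipoproteins, one of −0.31. Apoa4 had 1168 on the Diosgenin array and 1450 on the Control array, and its 2 probe sets gave −0.31 and −0.49. The flanking genes Sik3, Zpr1 and Bud13 had 0.10, 0.03 and −0.83. Bud13, a splicing protein, was dim, with 40.2 on the Diosgenin array and 71.3 on the Control array, and its ratio lay inside the range of the dimmest bin. Apoc2 lies next to Apoc4 in the second cluster, where Apoe, Apoc1 and Apoc4 had ratios of 0.02, −0.02 and 0.01 and the flanking genes Tomm40 and Clptm1 0.12 and 0.08. Every gene measured in and beside this cluster thus had a log2 ratio between −0.02 and 0.12.

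**Figure D3:**
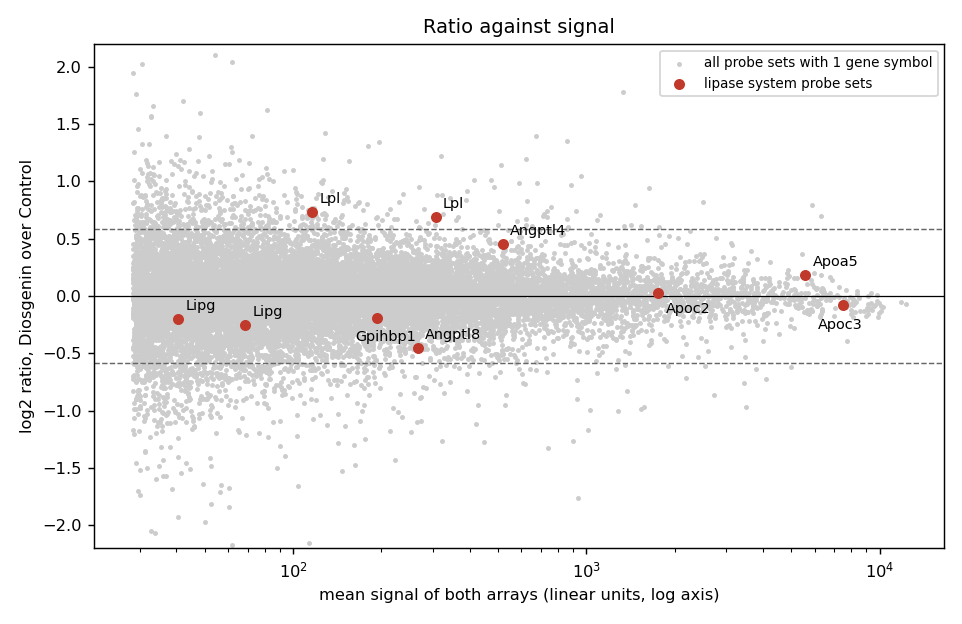
Log2 ratio (Diosgenin over Control) against mean signal (log axis, linear units) for all 16259 probe sets above the filter (grey) and the 10 of the lipase system (red), with dashed lines at 1.5-fold. The grey cloud narrows from left to right, Lpl and Angptl4 lie along its upper side, Angptl8 along its lower side, and Apoc2, Apoc3 and Apoa5 at the bright end near 0. The axis ends at 2.2 in either direction and leaves out 22 probe sets.

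Partner genes of plasma lipolysis were taken from a list of 20, of which 18 had a probe set and all 18 passed the filter. Of these 9 were higher and 9 lower, 0 were 1.5-fold apart in either direction, against 2.84% of 9732 genes higher and 3.61% lower, and the median log2 ratio was −0.0062, beside −0.0053 over all genes. Lmf1, the chaperone that lipoprotein lipase needs to fold in the endoplasmic reticulum, had 252 on the Diosgenin array and 276 on the Control array, a ratio of −0.13. Its relative Lmf2 had 182 on the Diosgenin array and 137 on the Control array, a ratio of 0.41. Sel1l, an adaptor of endoplasmic reticulum degradation that also stabilises the folded lipase, had −0.54 by its brightest probe set, with 594 on the Diosgenin array and 866 on the Control array, but its 5 probe sets ranged from −0.56 to 0.32. Furin, a protease that cleaves endothelial lipase and angiopoietin-like proteins, had 0.34.

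Among 10 genes of remnant and fatty acid uptake that passed, of 14 listed and 11 with a probe set, 4 had a higher and 6 a lower signal. Of them 0 were 1.5-fold apart, against 6.44% of 9732 genes, and the median was −0.02. The largest ratios were those of Scarb1, the receptor for high density lipoproteins, at −0.42, the fatty acid carrier Cd36 at −0.24, and the remnant receptors Lrp1 at 0.18 and Lsr at 0.12. Of 7 other lipases and lipid hydrolases that passed, of 14 listed, 4 had a higher and 3 a lower signal. Again 0 were past 1.5-fold, against the same 6.44%, and the median was 0.02. Pnpla2, the adipose triglyceride lipase that works inside cells, had 0.38, the monoglyceride lipase Mgll −0.17, the carboxylesterase Ces1d 0.14 and Lcat, which esterifies plasma cholesterol, 0.11. The 3 probe sets of Ces1d ranged from 0.14 to 3.23, so its value depends on the probe set.

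Transcription factors and cofactors known to control genes of the lipase system were taken from a list of 22, of which 21 had a probe set and passed. Of these 11 had a higher and 10 a lower signal, and their median was 0.02. A size of 1.5-fold was passed upward by 2, Ppargc1a and Nr1d1, and downward by 1, Ppard. These counts stand beside 2.84% of the 9732 genes at least 1.5-fold up and 3.61% down. The ratios of these 3 genes lay outside the central 95% of their bins of mean signal. The bin was the dimmest for Ppargc1a and Ppard and the second brightest for Nr1d1. Ppara, the receptor that controls Angptl4 in liver, had 1126 on the Diosgenin array and 1207 on the Control array, a ratio of −0.10. Its 3 probe sets ranged from −0.10 to 0.31, so the sign depends on the probe set. Ppara was named here, with Creb3l3 and Srebf1, after the values were seen. Creb3l3, a liver factor that drives Apoc2 and Apoa5, had −0.21, and Srebf1, which drives Angptl8, had −0.17. The coactivator Ppargc1a had 70.9 on the Diosgenin array and 38.7 on the Control array, a ratio of 0.88, with 0.54 by its other probe set. The clock repressor Nr1d1 had 160 on the Diosgenin array and 98.3 on the Control array, a ratio of 0.70. Ppard, a receptor that also controls Angptl4, had 23.1 on the Diosgenin array and 65.7 on the Control array, a ratio of −1.51. Its Diosgenin signal alone was under the 28.4 of the filter, so it passed through its Control signal. Mlx, the partner of the carbohydrate response factor, had −0.38.

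Genes of the fasting and PPARα response, to which Angptl4 belongs, had log2 ratios between −1.50 and 0.70. Of the 12 that passed, out of 18 listed and 15 with a probe set, 3 had a higher and 9 a lower signal, 1 was past 1.5-fold in each direction and the median was −0.06. Over all probe sets above the filter 49.4% were higher, and over all genes 2.84% were at least 1.5-fold up and 3.61% down. Pdk4, a kinase that spares glucose in fasting, had 46.1 on the Diosgenin array and 130 on the Control array, a ratio of −1.50, opposite in sign to Angptl4. Vnn1, a pantetheinase, had 112 on the Diosgenin array and 68.9 on the Control array, a ratio of 0.70, the same sign as Angptl4. Igfbp1 and the lipid droplet protein Plin5 had −0.56 and −0.48.

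Genes induced by feeding and insulin, as Angptl8 is, were lower in 11 of the 16 that passed and higher in 5, from 18 listed and 17 with a probe set. None was 1.5-fold apart, against 6.44% of 9732 genes, and their median was −0.10, beside −0.0053 over all genes. Among all probe sets that passed, 49.4% were higher. The lipogenic factor Thrsp had 1865 on the Diosgenin array and 2496 on the Control array, a ratio of −0.42, close to that of Angptl8. The liver pyruvate kinase Pklr had −0.34, the fatty acid synthase Fasn −0.30 and the desaturase Fads2 0.37.

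**Figure D4:**
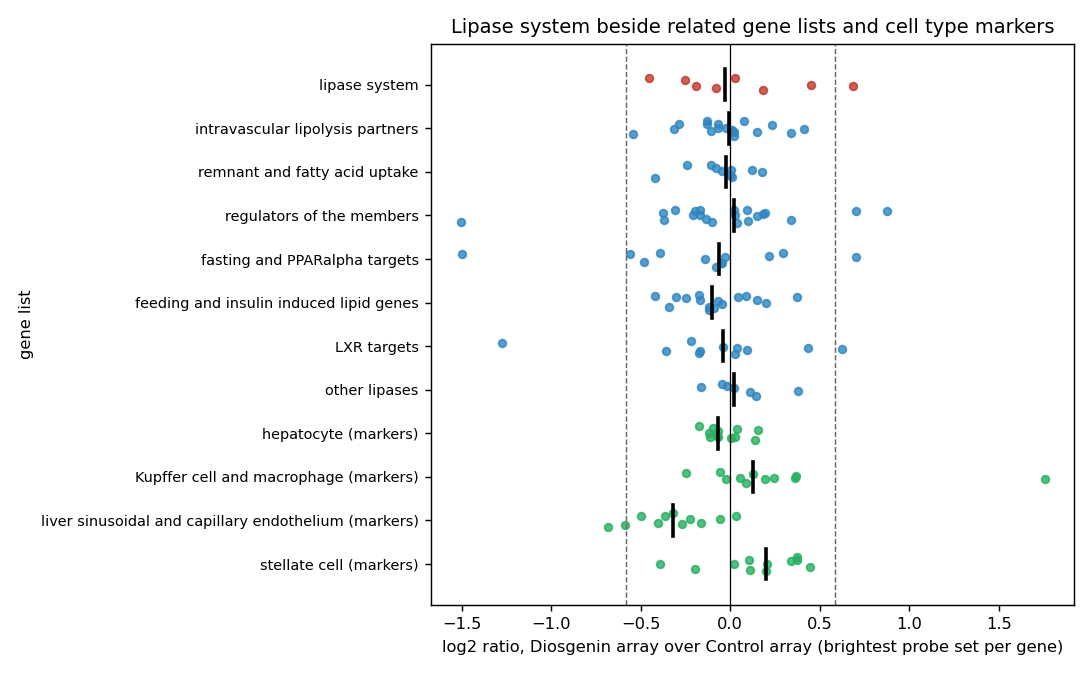
Log2 ratio (Diosgenin over Control) for each gene above the filter (points, brightest probe set) in the lipase system (red), 7 related gene lists (blue) and 4 lists of cell type markers (green), with the median of each list as a black bar and dashed lines at 1.5-fold. The medians of the lipase system and of the blue lists lie between −0.10 and 0.02, that of the endothelial markers at −0.32 and that of the stellate cell markers at 0.20. Points are shifted up or down only to keep them apart.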

How the data were processed

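The authors deposited 1 intensity per probe set and array on a linear scale, and the software GCOS is listed with no version per the submitters' processing notes. The RNA of the 3 mice of a diet was pooled before labelling, per the labels' protocols. How signals were summarised and scaled, and any detection calls, is not given in the sources used here. The number of arrays, 1 for each diet, limits the precision, and no p-value, error or interval was computed.

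Of 45101 probe sets, 34958 had 1 gene symbol in the platform annotation, 932 several and 9211 none, and those with several or none were left out. All 12 probe sets of the lipase system matched the RefSeq gene table by gene identifier. Signals under 10.7, the 40th percentile of all signals, were raised to it, and probe sets were kept from a mean signal of 28.4, the 60th percentile. The brightest probe set represented a gene. Differences of 1.5-fold were counted as a description. The genes, lists and thresholds were chosen with earlier results of these data known. Named were every gene of the system, up to 4 genes with the largest ratios per list, Lmf1, up to 3 of the brightest per marker list and the genes of both clusters, with exceptions said where they stand. A gene of like pattern cannot be ranked from 1 ratio. The floor, filter, scaling and choice of probe sets were varied. Python 3.11.15, numpy 2.4.6, pandas 2.3.3 and matplotlib 3.10.9 were used, and the counting was tested on simulated data.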

Additional observations from a re-analysis of the deposited data

How the results depend on the processing

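The 8 alternatives were a floor at the 20th or 60th percentile, no filter or one at the 75th percentile, centring, quantile normalization, leaving out shared and alternative probe sets, and the median of a gene's probe sets. Of 144 values, 142 stayed within 1.5 times the count or within 0.28 on the log2 scale. Part of this was fixed in advance, so the count says little about stability. Both other floors returned the main value for every result. A change of filter cannot alter the ratio of a gene that it keeps. Centring took off a median of only −0.0034. Without shared and alternative probe sets, 1 probe set was at least 1.5-fold apart and 1 at least 1.5-fold higher, because the second Lpl probe set is of that kind. That setting left no value for Angptl4, and the filter at the 75th percentile left none for Lipg. The sign of every measured gene of the system was kept where it had a value. The log2 ratio ran from 0.68 to 0.71 for Lpl, 0.18 to 0.19 for Apoa5, 0.01 to 0.03 for Apoc2, −0.08 to −0.05 for Apoc3, −0.19 to −0.18 for Gpihbp1 and −0.25 to −0.23 for Lipg, and rounded to 0.45 for Angptl4 and −0.45 for Angptl8 throughout. The median over the probe sets was 0.10 with the filter at the 75th percentile, against −0.03, and the medians of the partner and uptake lists were 0.01 and 0.0085 after quantile normalization. No paired analysis was possible because each diet had 1 array. The signals of Lipg lay closest to the filter, where ratios spread most.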

Other observations

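Of 11 targets of the sterol receptor LXR, a receptor that in mice also controls Lpl in liver, 5 were higher and 6 lower. Their median log2 ratio was −0.04. In each direction 1 was past 1.5-fold, beside 2.84% of all 9732 genes at least 1.5-fold higher and 3.61% lower. The sterol transporter genes Abcg5 and Abcg8 had 0.62 and 0.44. The other higher targets, Mylip, Lpcat3 and Nr1h3, had 0.09, 0.04 and 0.03. Abca1, Srebf1, Scd1 and Abcg1 had −0.22, −0.17, −0.17 and −0.04. Those 3 higher and 4 lower targets were named after their values were seen. The part of LXR in the Lpl signal was not tested. Pltp, a phospholipid transfer protein, had −0.36 with 0.10 by another probe set, and Cyp7a1, the first enzyme of bile acid synthesis, had −1.27.

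Marker lists of other cell types were mostly under the filter. Of 8 measured pancreatic acinar markers 2 passed, with log2 ratios of −0.08 for Cela1 and 0.21 for Cela3b. Of 9 measured lymphocyte markers 1 passed, Cd8a at −0.01. Of 6 measured bile duct markers 1 passed, Sox9, with 26.1 on the Diosgenin array and 42.0 on the Control array, a log2 ratio of −0.69. The Diosgenin signal of Sox9 alone was under the 28.4 of the filter.

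Vldlr, a receptor that binds triglyceride-rich lipoproteins together with Lpl, had 38.2 on the Diosgenin array and 15.1 on the Control array by its brightest probe set, a log2 ratio of 1.33. It was under the filter on mean signal and was chosen for mention after its values were seen.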
